A study of Mus musculus with 6 samples.

Results

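The mitochondrial ribosomal protein genes are the nuclear genes whose symbols begin with Mrpl or Mrps followed by a number. They were taken by symbol from the table of RPE/choroid total RNA, with rows of pseudogenes left out, and they made up 76 of its 33924 rows. Of these, 47 have a large subunit symbol (Mrpl) and 29 a small subunit symbol (Mrps). The RNA came from the retinal pigment epithelium (RPE), the pigmented layer behind the photoreceptors, scraped off together with the vascular choroid from C57BL/6J mice. There were 3 young mice, labelled 1 to 2 months old, and 3 aged mice, labelled 20 to 24 months in the titles and 22 to 24 months in the time label. All carry the label male, whereas the methods name both sexes and give the young mice a higher age range. Each library was made, per the methods, from 2 eyes, after depletion of ribosomal RNA and with no selection for poly(A) tails.

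Mitochondria hold their own ribosome, which translates the few mRNAs of the mitochondrial genome, all for subunits of the respiratory chain and ATP synthase. Its rRNAs are transcribed inside the organelle, but each of its proteins is encoded in the nucleus, made in the cytosol and imported. Some of these proteins descend from the bacterial ribosome, and others were added during the evolution of mitochondria. The RPE is an epithelium that relies strongly on oxidative phosphorylation.

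For each gene the table gave a single level, the mean normalised read count over all 6 libraries. The table has no value per library, so a level carries no SD. Its other columns hold the authors' own comparison of the ages and were not used, so young and aged mice were not compared here. Every statement below describes the tissue of both ages pooled. In RNA from a bulk tissue, fewer cells of a type and less RNA per cell cannot be told apart. The dissected tissue held more than RPE: 7 of 8 RPE marker genes lay above the median protein-coding gene, with Rpe65, the isomerase of the visual cycle, at a mean of 43745 and Best1, an RPE chloride channel, at 69.8. All 5 of the endothelium and skeletal muscle markers each, 4 rod photoreceptor markers and the 4 macrophage markers in the table also lay above it. Acta1, skeletal muscle actin, had a mean of 17441. All 5 melanocyte markers were above that median as well, but these pigment genes are also expressed by the RPE, and the sources cannot be told apart here. How much each cell type contributed to the mitochondrial ribosomal protein mRNAs was not tested.

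The mRNAs of the mitochondrial ribosomal proteins were present at moderate levels, most of them within a narrow range. The mean normalised count was above 0 for 75 of the 76 genes, and 63 of them lay between 200 and 1000. Only 2 reached 1000 or more, Mrps7 (1018) and Mrpl49 (1002), and 10 lay above 0 but under 200. The median was 474, and the 76 genes together took 0.191% of the summed counts of the table. Since a longer mRNA yields more reads, levels of different genes are compared per kilobase (kb) of coding length. On that scale the median gene stood at 709 normalised counts per kb, above 75.6% of the 16439 protein-coding genes with a mean above 0. Of the 75 genes, 70 (93.3%) were above the median protein-coding gene, which stood at 228 per kb. The 90th percentile was 6.72 times the 10th, and 53 of 75 genes were within 2-fold of the median of the family. The extremes were farther apart, with the highest gene 60.6-fold above the lowest. The lowest, Mrpl23, shares most of its sequence with a pseudogene and stood at 603 per kb with that copy added.

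**Figure D1:**
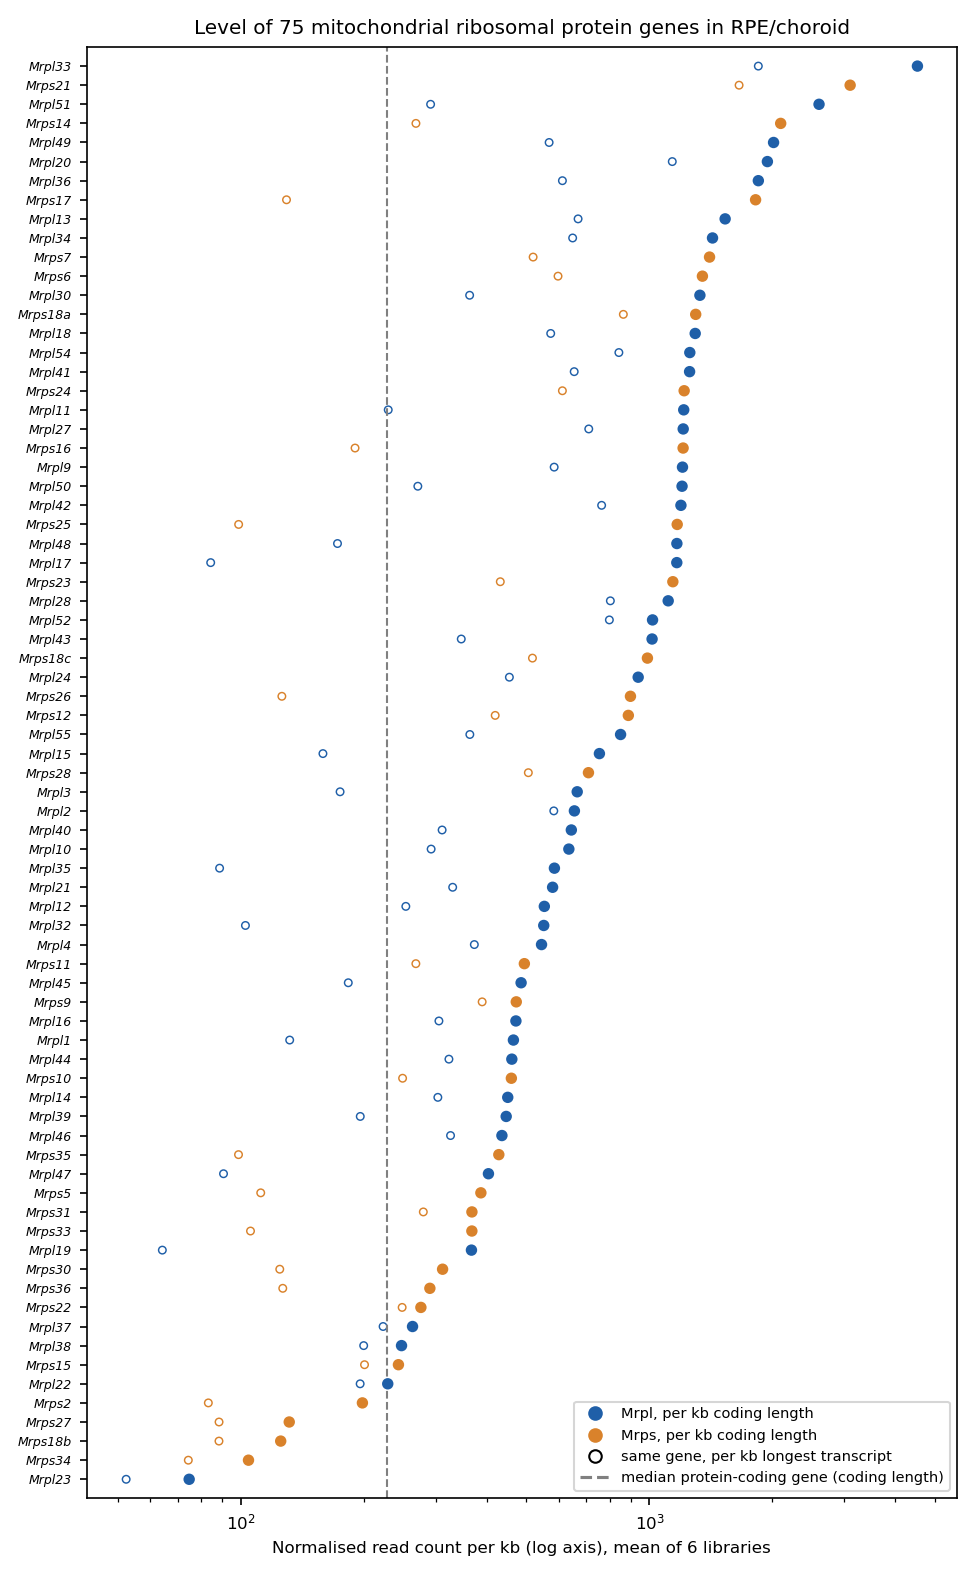
Level of each of the 75 mitochondrial ribosomal protein genes with a mean above 0, as the normalised read count (mean of 6 libraries) per kb on a log axis. Filled circles use the coding length and open circles the length of the longest transcript, blue marks Mrpl and orange Mrps symbols, and the dashed line is the median protein-coding gene on the coding scale (228). Mrpl33 stands at the top with 4526 per kb and Mrpl23 at the bottom with 74.7, and several genes with long transcripts, such as Mrps17, fall far to the left on the transcript scale.

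Per kb of coding length the top of the order was held by short proteins, which division by that length itself favours. Mrpl33, a small protein with a bacterial counterpart (chromosome 5, 31596935 to 31664384, GRCm38, 4 exons in the representative transcript), had a mean of 883 and a coding length of 195 bases, which gave 4526 per kb. Mrps21, another bacterial-type protein of the small subunit (chromosome 3, 95862634 to 95871519), followed with a mean of 809 and 3098 per kb. Mrpl51, a protein found in mitochondrial but not in bacterial ribosomes (chromosome 6, 125191801 to 125196269), had a mean of 998 and 2600 per kb. These 3 were also high before division by length, ranking 5, 9 and 3 by the mean. The next in order were Mrps14 with 2095 per kb, Mrpl49 with 2012, Mrpl20 with 1943, Mrpl36 with 1847, Mrps17 with 1818, Mrpl13 with 1532 and Mrpl34 with 1426. All but Mrpl49 and Mrpl51 of these 10 belong to the proteins with a bacterial counterpart, as do 45 of the 75 genes above 0. Most of these 10 left the highest 10 per kb of the longest transcript. Mrpl34 was high only through its length of 276 coding bases, since its mean of 394 ranked 49 of 75. Mrps7, which binds the head of the small subunit rRNA (chromosome 11, 115603925 to 115608036), had the highest mean of all and stood at rank 11 per kb with 1403.

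At the bottom, 5 genes lay below the median protein-coding gene per kb of coding length. More lay below it on other scales, since 62 of 75 were above it per kb of the longest transcript and 57 without division by length. Mrps2, a bacterial-type protein of the small subunit, had a mean of 173 and 198 per kb. Mrps27, an RNA-binding protein with pentatricopeptide repeats, had a mean of 164 and 131 per kb. Below them came Mrps18b with a mean of 95.4 and 125 per kb, Mrps34 with 68.3 and 104 per kb, and Mrpl23 with 38.6 and 74.7 per kb. The pseudogene that shares most of the sequence of Mrpl23 is described below. Of these 5 genes, 4 encode proteins of the small subunit, as do 26 of the 75 genes above 0. Mrps22 (276 per kb), Mrpl37 (263), Mrpl38 (247), Mrps15 (243) and Mrpl22 (229) filled the rest of the lowest 10 and stood just above the line. Mrpl53 was the single gene listed at 0.

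The order of single genes depended on the length used. Per kb of the longest transcript the median was 291 and lay above 74.0% of protein-coding genes, close to its place on the coding scale. Without division by length the median gene lay above 57.7% of them. The ranking of single genes moved more, with a Spearman rank correlation of 0.67 between the scales over 75 genes that share the same counts. Of the highest 10, 4 stayed among the highest 10 on the transcript scale (Mrpl33, Mrps21, Mrpl20 and Mrpl13), and of the lowest 10, 5 stayed (Mrps2, Mrps27, Mrps18b, Mrps34 and Mrpl23). Mrps17 has a coding length of 360 bases in a transcript annotated at 5061, and it went from rank 8 to rank 58. The mean count itself had only a weak relation to coding length (rank correlation of -0.20) and to transcript length (rank correlation of 0.21), whereas the level per kb of coding length, which holds that length as its divisor, had a rank correlation of -0.65 to it.

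Genes for working centres of the ribosome fell inside the main range. Mrps12, the protein of the decoding centre, had a mean of 370 and 888 per kb. Mrps5, near the entry of the mRNA, had 501 and 387 per kb, and Mrpl3, which reaches towards the peptidyl transferase centre, had 695 and 665 per kb. The stalk that recruits translation factors is built from Mrpl10, Mrpl11 and Mrpl12. Their levels were 635, 1213 and 553 per kb, with the lowest value in Mrpl12, which occurs in several copies per ribosome. Per kb of transcript the order changed to 292, 229 and 253, with Mrpl11 the lowest. Mrpl45, which anchors the large subunit to the inner membrane near the exit of the nascent chain, stood at 485 per kb.

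Proteins of the mitochondrial ribosome with other symbols were in the same range. Dap3, a GTP-binding protein of the small subunit head, had a mean of 865 and 728 per kb. Ptcd3, a pentatricopeptide repeat protein of the small subunit, had 1013 and 493 per kb. Chchd1, Aurkaip1 and Gadd45gip1 stood at 1795, 1543 and 434 per kb. Ict1, the peptidyl-tRNA hydrolase built into the large subunit, had a mean of 1047, higher than any gene with an Mrp symbol, and its symbol was not matched to a length.

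The median large subunit gene stood higher than the median small subunit gene. The 46 Mrpl genes above 0 had a median of 802 per kb, and 45 of them were above the median protein-coding gene. The 29 Mrps genes had a median of 494 per kb, and 25 of them were above it. The ratio of the medians was 1.62, but it was 1.28 per kb of transcript and 1.16 without division by length. Both subunits spanned much the same range at the top, with upper quartiles of 1212 and 1209 per kb, and differed at the bottom, with lower quartiles of 475 and 312. The symbols do not always give the place of the protein. Mrps30 (312 per kb) and Mrps18a (1297) are now known to sit in the large subunit, and Mrps36 (290) is assigned to the 2-oxoglutarate dehydrogenase complex. With Mrps30 and Mrps18a moved and Mrps36 left out, the ratio was 1.33.

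The 3 Mrps18 paralogs, whose sequences are related to the same bacterial protein, differed widely. Mrps18a had a mean of 763 and 1297 per kb, Mrps18c had 424 and 988 per kb, and Mrps18b had 95.4 and 125 per kb. Of the 31-base words of each transcript, 66.1% for Mrps18b and 64.5% for Mrps18c, but 100% for Mrps18a, occur in no other annotated gene.

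Across the family, genes with a bacterial counterpart had a median of 754 per kb (45 genes) and those without one had 485 (27 genes above 0). Per kb of coding length the 2 subunits went in opposite directions, but without division by length they did not. In the small subunit the medians were 938 with a counterpart (16 genes) and 368 without (10 genes). In the large subunit, with Mrps30 counted there, they were 665 with a counterpart (29 genes) and 1015 without (17 genes above 0). Per kb of the longest transcript the small subunit kept its direction (329 and 102), while the large subunit values were nearly equal (305 and 311). The median means without division by length were higher with a counterpart in both, 495 against 354 in the small subunit and 537 against 455 in the large subunit, the latter with Mrpl53 included at 0. The 3 genes Mrpl55, Mrps18a and Mrps36 were put in neither class, and of the Mrps18 paralogs only Mrps18c was counted as the bacterial counterpart, with Mrps18b among the genes without one.

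**Figure D2:**
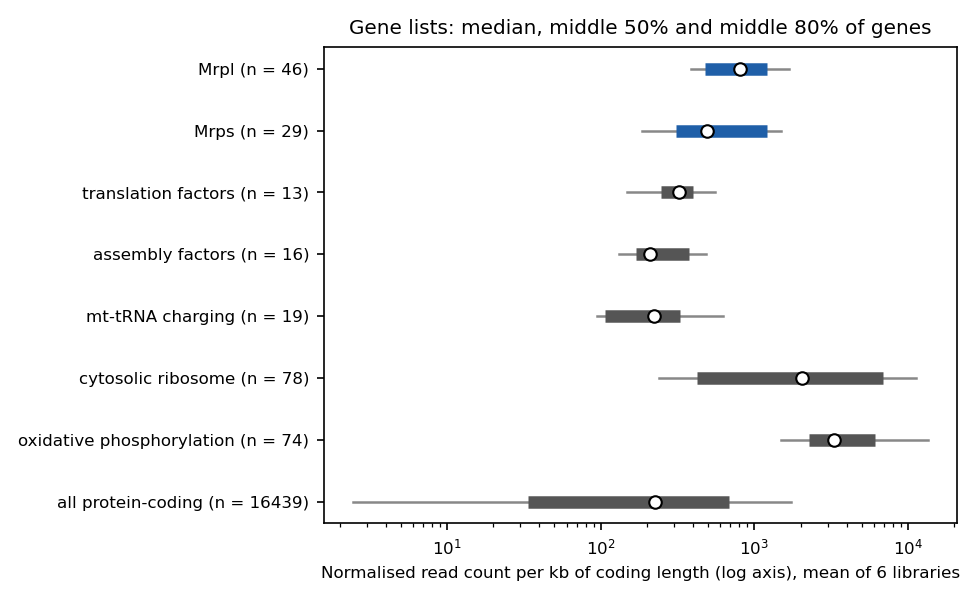
Normalised read count per kb of coding length (mean of 6 libraries, log axis) for genes above 0 in each list, with the median as a white circle, the middle 50% of genes as a thick bar and the middle 80% as a thin line. The Mrpl and Mrps genes (blue, medians 802 and 494) lie between the factors that serve the mitochondrial ribosome (medians 210 to 324) and the cytosolic ribosome (2037) and oxidative phosphorylation subunits (3279).

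In level the family stood between the factors that serve it and the genes of the cytosolic ribosome and the respiratory chain. The 13 mitochondrial translation factors in the table, a list that holds factors for the steps of protein synthesis and also Lrpprc and Taco1, which act on mitochondrial mRNAs and their translation, had a median of 324 per kb. The 16 assembly factors, which modify rRNA and mature the subunits, had 210, and the 19 genes for charging mitochondrial tRNAs had 222. These 19 are aminoacyl-tRNA synthetases, apart from Gatc and Qrsl1, which encode subunits of the glutamyl-tRNA amidotransferase. Lars2, the leucyl-tRNA synthetase, had the highest count of the synthetases, with 2982 per kb and a mean of 8070, and Iars2 was next with 698 per kb. Sequence that Lars2 shares with other genes was not searched, so reads from elsewhere could not be told apart from its own. On the other side, 78 proteins of the cytosolic ribosome had a median of 2037 per kb and 74 nuclear-encoded subunits of oxidative phosphorylation had 3279. The oxidative phosphorylation subunits took 1.06% and the cytosolic ribosomal proteins 0.883% of the summed counts. The ratio of the 90th to the 10th percentile, 6.72 in the mitochondrial ribosomal proteins, was 47.3 in the cytosolic ribosome and 9.13 in oxidative phosphorylation. It was 6.66 in the genes for tRNA charging, 3.69 in the translation factors and 3.64 in the assembly factors. The cytosolic genes have many processed pseudogenes, and how reads were divided among copies was not tested.

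Some members share much of their sequence with other genes. Each member's representative transcript was split into overlapping 31-base words, and the share of words found in no other annotated gene was counted. Of the 75 genes above 0, 62 had at least 80% of words of their own, and their median mean count was 482. The other 13 had a median mean count of 424. Per kb of coding length the order turned, with medians of 687 and 988. Over the 75 genes the share had a rank correlation of 0.02 to the mean and of -0.12 to the level per kb. The genes with the smallest shares, Mrpl53 and Mrpl23, were also the lowest in mean.

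**Figure D3:**
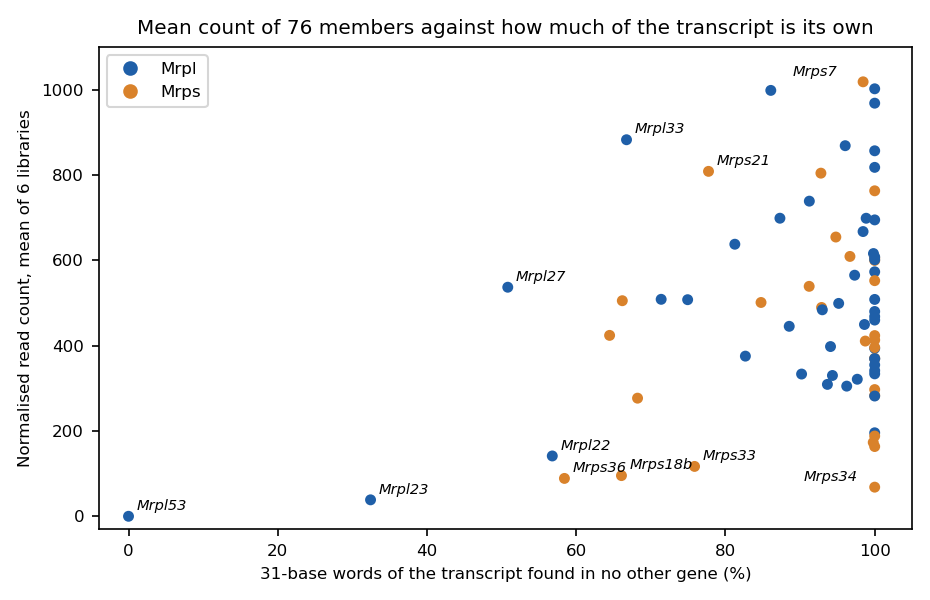
Normalised read count (mean of 6 libraries) of the 76 mitochondrial ribosomal protein genes against the percentage of 31-base words of the representative transcript that occur in no other annotated gene, with Mrpl in blue and Mrps in orange. Mrpl53 (0%) and Mrpl23 (32.4%) stand at the lower left, while Mrps34 is low with 100% of its words its own and Mrpl33 is high with 66.7%.

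Mrpl53 (chromosome 6, 83109040 to 83109939) had 0% of words of its own, because each of them also belongs to Gm42688, a protein-coding gene model on the same strand that overlaps its exons. Gm42688 was not matched to a row of the table by that symbol, so the level of the shared sequence is not known here. Mrpl23 (chromosome 7, 142532686 to 142540747) had 32.4%, and its pseudogene Mrpl23-ps1 had a mean of 273 against 38.6 for the gene. Of the words of the pseudogene, 94.6% also occur in Mrpl23. Added together they gave 603 per kb, near the middle of the family.

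Other members shared less of their sequence with copies. Mrps36 had 58.4% of its own words, and its pseudogenes Mrps36-ps1 and Mrps36-ps2 had means of 85.3 and 14.1 against 88.8 for the gene, giving 615 per kb in sum. Mrps33 had 75.9%, and the copy Gm5776 had a mean of 172 against 117 for the gene, which raised its level from 368 to 909 per kb. Mrpl27 (50.8% own words) and Mrpl48 (91.2%) rose less, from 1209 to 1444 and from 1167 to 1485 per kb. Reads of a gene and of its copy could not be told apart here, and each sum counts both in full.

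Mrps6 (chromosome 16, 92058270 to 92112227) holds another gene within its span, Slc5a3, the myo-inositol transporter. Slc5a3 is on the same strand with shared exon sequence and had a mean of 3786 against 505 for Mrps6. Of the words of Mrps6, 66.2% were its own, 15.8% also occur in Slc5a3 and 33.8% in Gm49711, a gene model that overlaps its exons on the same strand. Mrps34 (chromosome 17, 24895116 to 24897502) had no shared words in its representative transcript, yet its exons overlap Nme3 on the same strand, which was listed at 0, and Mapk8ip3 on the other strand, with a mean of 1217. In all, 8 of 76 members overlapped an exon of another gene on the same strand and 25 on the opposite strand, and 30 did so on either strand.

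The members were spread over 17 chromosomes, with 10 on chromosome 11, 8 on chromosome 17 and 7 on chromosome 6. Many stood head to head with another gene, with start sites on opposite strands, pointing away from each other without overlap and within 1000 bases. Pairs whose 5′ ends overlap, such as Mrpl46 and Mrps11, were not counted. A head-to-head neighbour without overlap was found for 17 of 76 members (22.4%) and for 1484 of 21911 protein-coding genes (6.77%). The member was the higher of the pair in some cases and the lower in others. Sequence that the partners share with other genes was not searched. Mrpl49 and Fau, which encodes a protein of the cytosolic ribosome, had starts 59 bases apart and means of 1002 and 95.8. Mrps18b and Ppp1r10, 45 bases apart, had means of 95.4 and 1021. Mrps12 and Sars2, the mitochondrial seryl-tRNA synthetase, both serve mitochondrial translation and were 172 bases apart, with means of 370 and 85.5.

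The promoters of the family were searched for the letters of motifs bound by factors known to act on nuclear genes for mitochondrial proteins. RefSeq windows on GRCm38, from 250 bases before to 50 bases after the start site, were given for 67 of the 76 members (73 windows). The motifs were CCGGAAG for ETS factors such as GABPA, GCGCNTGCG for NRF1, AAGATGGC for YY1, TCAAGGTCA for ERR, GGGCGG for Sp factors and TATAAA for the TATA box, each on both strands. The following stretches of 30 bases show one match each, in capitals, read 5′ to 3′ on the strand of the gene. They were chosen from the highest 11 genes and, with Mrpl22, from the lowest 10. A match on the other strand appears as the reverse complement, as in Mrps7 and Mrpl36.
Mrpl51, ETS: caggggctaaaCCGGAAGtatttgactgga
Mrpl34, ETS: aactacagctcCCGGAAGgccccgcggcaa
Mrpl22, ETS: cttttccggtcCCGGAAGccggcctcggac
Mrps21, NRF1: ggaaagtccaGCGCCTGCGctcagcaccga
Mrps7, NRF1: cgctcactcaCGCAGGCGCgctgtgggcag
Mrpl22, NRF1: gcctcggactGCGCATGCGtatagtcagcc
Mrpl36, YY1: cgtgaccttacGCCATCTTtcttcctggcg

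The Mrpl51 stretch is at chr6:125192099-125192128 on the plus strand and begins its match 90 bases before the RefSeq start, within what GENCODE annotates as an exon of Mrpl51 from a start farther upstream. The Mrpl34 stretch, at chr8:71464878-71464907 on the plus strand, and the Mrpl22 stretches, at chr11:58171600-58171629 and chr11:58171621-58171650 on the plus strand, lie outside annotated genes, with matches 37, 53 and 33 bases before the start. The Mrps21 stretch, at chr3:95871586-95871615 on the minus strand, overlaps an exon of the neighbour C920021L13Rik and matches 91 bases before the start. The Mrps7 stretch, at chr11:115604104-115604133, and the Mrpl36 stretch, at chr13:73330968-73330997, both on the plus strand, overlap annotated exons of their own genes, with matches 26 and 30 bases before the RefSeq start. Mrpl22 was shown because it holds both kinds of letters. It stood just above the median protein-coding gene per kb of coding length, its rank went from 70 to 51 per kb of transcript, and 43.2% of its words also occur in Gm6997.

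The ETS letters were in 24 of 73 member promoters (32.9%), against 8.86% of all 32851 promoters and 11.6% of promoters of protein-coding genes. The NRF1 letters were in 17 (23.3%), against 6.31% and 8.61%. The YY1 letters were in 12 (16.4%), against 2.75% and 3.05%, and most of those matches lay after the start site, since 5.48% of member promoters held them before it. Either ETS or NRF1 letters were in 35 promoters (47.9%, against 14.0% of all), and both were in 6 (8.22%, against 1.18%). Sp letters were in 52.1% (35.7% of all and 46.2% of protein-coding promoters). TATA letters were less frequent than in all promoters, 6.85% against 13.6%, and ERR letters were in none of the 73 windows, against 0.423% of all. Matches of the ETS and Sp letters overlapped in 2 member promoters, and no other pair of motifs overlapped. Member promoters were also richer in G and C, with a median of 58.3% against 52.7% of all and 56.3% of protein-coding promoters, and held a median of 21 CG steps against 7 and 13. The part of base composition in the motif shares was not tested. The windows come from the reference and not from these mice, and a match is not a bound site.

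**Figure D4:**
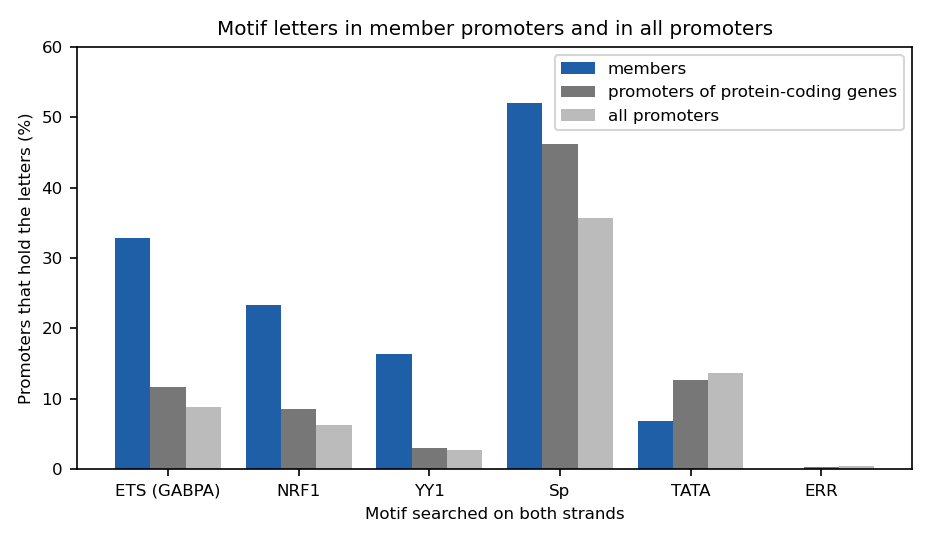
Percentage of promoter windows (250 bases before to 50 after the start, RefSeq on GRCm38) that hold the letters of each motif on either strand, for 73 windows of mitochondrial ribosomal protein genes (blue), promoters of protein-coding genes (dark grey) and all promoters (light grey). The blue bars are higher for ETS (32.9%), NRF1 (23.3%) and YY1 (16.4%), and lower for TATA (6.85%).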

How the data were processed

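RNA of RPE/choroid from 3 young and 3 aged mice was sequenced by the authors after rRNA depletion with a stranded kit. Per the methods and the labels, reads were trimmed with BBDuk, mapped to Ensembl transcripts of GRCm38 with STAR, quantified with Sailfish and compared by the authors with DESeq2. The deposited table holds 1 row per gene. Its baseMean, a signal that is never negative, is the authors' mean normalised count over 6 libraries. It was not divided by length: among genes with a mean of at least 50, the median mean rose from 361 for transcripts under 1000 bases to 1440 for those of 8000 or more. The 2157 rows above 0 and under 0.445 were all whole sums of the 6 smallest steps (tolerance 1e-06), and these steps differed by at most 1.35-fold, as counts of whole reads scaled per library would give. Whether these counts came from Sailfish, and how reads shared between genes were assigned, is not known here. The other 5 columns hold the authors' comparison of the ages (log2 fold change, its standard error, Wald score, p-value and adjusted p-value). They were not used. The table held 0 columns of values of a single sample, so depth per library is unknown here, and aged and young mice were not compared, although a count model had been planned.

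Each row was matched by symbol to GENCODE M21 (GRCm38), newer than the authors' annotation. All 76 members matched, and 27 ambiguous symbols were left out. Coding length was that of the longest coding sequence, in place of the planned length from a protein table, which was not used here. Described genes were the 10 highest and 10 lowest members per kb, those at 0, genes listed for their role (stalk, core, membrane anchor, Mrps18 paralogs, symbols at odds with the protein's place, Mrps6) and proteins with other symbols. Mrps7, Mrps33, Mrpl27 and Mrpl48, and the head-to-head pairs, were chosen after their values were seen, as were the searches for shared words and neighbours. The members and gene lists were chosen with earlier results of these data known. A further gene of the marker lists is not reported here. Medians, shares and rank correlations are descriptions without tests. Word and motif searches were checked on made-up sequences. Alternatives changed the length, the filter on low means, the subunit assignment, the promoter window and the motif letters. Python 3.11.15, pandas 2.3.3, numpy 2.4.6, scipy 1.17.1 and matplotlib 3.10.9 were used.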

Additional observations from a re-analysis of the deposited data

How the results depend on the processing

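Of 15 alternatives run, 11 left the value within its 95% binomial interval (exact Clopper-Pearson over genes or promoters, as a yardstick only) or within 1.5-fold of the reported one, and 4 moved it. The share of members above the median protein-coding gene, 93.3% as reported, was 82.7% per kb of the longest transcript, 76.0% without division by length and 84.0% when members and background were limited to means of at least 10. The place of the median member, above 75.6% of protein-coding genes as reported, was above 57.7% without division by length, which counts among the 11 although a 1.5-fold bound is wide for a percentile. The ETS share of member promoters, 32.9% as reported, was 5.48% with the longer letters ACCGGAAGT, which 1.1% of all promoters held. The ratio of large to small subunit medians stayed above 1 under each of its 3 alternatives. No paired analysis was possible because values of single libraries were not given in the table. That is also why the leave-one-out fits, the replicate block, the DESeq2 and edgeR fits and their filters on low counts were not run, and the spread between mice could not be given for any gene. Depth limits the lowest genes most, but its size per library is unknown here.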

Other observations

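Counts of the genes whose mRNAs the mitochondrial ribosome translates differed far more in the table than counts of its protein genes did. Among the 13 protein-coding genes of the mitochondrial genome, mt-Co1, a catalytic subunit of cytochrome c oxidase, had a mean of 76171 normalised counts, and mt-Co2, another subunit of the same enzyme, had 49.5. The ATP synthase genes mt-Atp6 and mt-Atp8 had means of 21.5 and 4.45, and mt-Nd4l had 2.94. The gene mt-Nd4, which overlaps the end of mt-Nd4l on the same strand, had a mean of 2905. The mitochondrial rRNA genes mt-Rnr1 and mt-Rnr2 had means of 4265 and 101174 in libraries from which rRNA had been removed. The cause of these differences was not tested, nor was how reads were assigned to these genes. The counts are therefore not read as levels of the mRNAs.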
